A study of Mus musculus with 15 samples.

Results

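The subunits of the constitutive proteasome were followed across mouse colon from 3 groups of 5 RNA-seq libraries. Genes were taken by symbol, as all names of Psma, Psmb, Psmc or Psmd followed by a number, without the immunoproteasome genes Psmb8, Psmb9 and Psmb10. That gave 36 of the 22063 genes listed. Of these, 34 passed the filter on low values (at least 1 FPKM in at least 5 libraries) and were tested. Psma8, the alpha subunit of germ cells, stayed between 0 and 0.242 FPKM. Psmb11, the beta subunit of the thymus cortex, was listed at 0 in 14 libraries and at 0.103 FPKM in WMW-H replicate 4.

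All mice were wild-type C57BL/6. Control mice were blank controls. AOM/DSS mice carried colorectal cancer induced with azoxymethane, a carcinogen, and dextran sulfate sodium, which injures the colon lining. WMW-H mice had the same model and received WMW-H, in a series whose title names the herbal formula Wumei Wan. The dose, the treatment times and the ages are not given in the sources used here. Nothing in the labels says that the 5 libraries of a group came from separate animals, so the p-values measure the spread between these libraries, which may be technical.

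The 26S proteasome is the ATP-dependent protease that breaks down proteins tagged with ubiquitin. Its core is a barrel, with outer rings of alpha subunits that gate the entrance and inner rings of beta subunits, of which Psmb5, Psmb6 and Psmb7 carry the chymotrypsin-like, caspase-like and trypsin-like proteolytic sites. The cap that sits on the barrel has a base, with a ring of ATPases that unfold the substrate, and a lid that removes the ubiquitin chain. Interferon exchanges the proteolytic subunits for Psmb8, Psmb9 and Psmb10, and the transcription factor NRF1, product of Nfe2l1, raises the constitutive genes together when proteasome activity runs short. In the colon, the renewing epithelium and infiltrating immune cells both depend on it.

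Values were FPKM, fragments per kilobase of transcript scaled to depth, so levels could be set side by side between genes. Depth, read from the steps between low values, was 16300000 to 21100000 fragments per library. Libraries of a group resembled each other (correlation of log2 values 0.992 to 0.995) more than those of different groups (0.939 to 0.972). WMW-H replicate 3 had the lowest median correlation with its own group, 0.993, and was the lowest WMW-H library for 22 of the 34 tested members. The label gives colon epithelial cells, and the 8 epithelial markers (Epcam, Cdh1, keratins and others) summed to 6752 to 6841 FPKM in AOM/DSS, 6761 to 6816 in Control and 5703 to 5948 in WMW-H. Other cell types were present too. Smooth muscle markers summed to 2002 to 2116 FPKM over all libraries. The 8 leukocyte markers ran from 190.8 to 208.2 FPKM in Control, 424.8 to 434.9 in AOM/DSS and 326.8 to 350.5 in WMW-H, and the 6 fibroblast markers from 202.3 to 209.3, 328.8 to 349.7 and 379.9 to 416.2. The 6 plasma cell markers ran from 808.6 to 829.0, 493.3 to 529.6 and 613.1 to 677.8 FPKM. The 12 pancreatic acinar genes summed to 26015 to 26702 FPKM in Control, 5688 to 5861 in AOM/DSS and 10003 to 10461 in WMW-H, and the 7 listed genes of male accessory glands (Semg1 and the Svs family) to 2750 to 2886 FPKM in AOM/DSS against 0 to 4.50 elsewhere. The 7 Paneth cell genes ran from 4.84 to 9.31, 683.8 to 734.1 and 227.9 to 248.5 FPKM, with Defa26 listed at 0 in all Control libraries. The part of this tissue mix in the values below was not tested, and in bulk RNA fewer cells of a type and less RNA per cell cannot be told apart.

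The members differed in base composition, and the results below ran along it, so the sequences come first. The first 120 coding bases of 5 members are shown from GENCODE M21, in order of the GC content of their whole transcripts, which is lowest in Psmc6 of all tested members and is matched by 1 other, Psmd3, at the level of Psmb5. G and C are in capitals.
Psmc6: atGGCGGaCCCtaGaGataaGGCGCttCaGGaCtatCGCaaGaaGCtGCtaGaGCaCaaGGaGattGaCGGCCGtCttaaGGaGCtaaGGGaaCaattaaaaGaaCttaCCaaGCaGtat
Psma3: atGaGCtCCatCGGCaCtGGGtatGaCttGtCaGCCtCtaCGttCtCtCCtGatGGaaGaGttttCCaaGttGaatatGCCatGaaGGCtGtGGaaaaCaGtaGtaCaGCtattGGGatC
Psma4: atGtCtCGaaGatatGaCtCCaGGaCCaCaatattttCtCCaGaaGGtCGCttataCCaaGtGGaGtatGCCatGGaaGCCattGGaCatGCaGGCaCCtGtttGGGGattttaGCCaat
Psmd4: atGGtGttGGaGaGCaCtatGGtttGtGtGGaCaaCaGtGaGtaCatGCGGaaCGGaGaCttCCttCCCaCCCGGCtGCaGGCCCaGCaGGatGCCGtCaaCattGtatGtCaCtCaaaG
Psmb5: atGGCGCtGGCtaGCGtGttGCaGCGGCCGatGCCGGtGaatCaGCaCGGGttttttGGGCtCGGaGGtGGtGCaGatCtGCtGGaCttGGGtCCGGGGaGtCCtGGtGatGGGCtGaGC
G and C made up 47.5% of the printed bases of Psmc6 and 63.3% of those of Psmb5. Over whole transcripts (median of a gene's coding ones) the 34 tested members ran from 36.97% in Psmc6 to 57.1% in Psmb5 and Psmd3. Psma3 was at 40.8%, Psma4 at 46.6% and Psmd4 at 54.5%.

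Promoters of 4 members are shown as well, each as the 250 bases before the transcription start on the gene's strand (RefSeq, GRCm38.p6), for both catalytic subunits with an entry and for Psma4 and Psmd4, which had the largest rise and the largest fall of all members in WMW-H against AOM/DSS. Capitals mark a match to TGACNNNGC, the core of the antioxidant response element that NRF1 and NRF2 bind, or to CCGGAAG, the core of ETS factor sites.
Psmb5, chr14:54617996-54618245, minus strand: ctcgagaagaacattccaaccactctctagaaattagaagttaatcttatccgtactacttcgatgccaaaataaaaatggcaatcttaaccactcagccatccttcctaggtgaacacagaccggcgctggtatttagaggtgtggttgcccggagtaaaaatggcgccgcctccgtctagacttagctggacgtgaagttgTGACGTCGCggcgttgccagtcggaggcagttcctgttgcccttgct
Psmb6, chr11:70525107-70525356, plus strand: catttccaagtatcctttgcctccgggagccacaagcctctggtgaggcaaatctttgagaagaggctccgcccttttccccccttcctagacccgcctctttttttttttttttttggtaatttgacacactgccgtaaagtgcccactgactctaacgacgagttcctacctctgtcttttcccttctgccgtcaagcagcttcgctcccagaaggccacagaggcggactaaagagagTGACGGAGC
Psma4, chr9:54950609-54950858, plus strand: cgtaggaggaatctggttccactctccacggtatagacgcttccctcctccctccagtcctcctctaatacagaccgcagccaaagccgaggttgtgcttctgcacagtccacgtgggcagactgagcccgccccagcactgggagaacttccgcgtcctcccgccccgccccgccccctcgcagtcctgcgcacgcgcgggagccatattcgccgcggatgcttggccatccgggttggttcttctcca
Psmd4, chr3:95042615-95042864, minus strand: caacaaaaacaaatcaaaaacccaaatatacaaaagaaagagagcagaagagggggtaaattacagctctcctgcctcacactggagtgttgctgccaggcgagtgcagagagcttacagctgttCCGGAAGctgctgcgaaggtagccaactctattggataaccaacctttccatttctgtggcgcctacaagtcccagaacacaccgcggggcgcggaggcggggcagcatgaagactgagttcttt
The match in Psmb5 is TGACGTCGC, from position -47 to the start, and that in Psmb6 is TGACGGAGC, from position -9. Psmd4 has the ETS core at -125, and the Psma4 window holds neither. Of the 36 members, 29 had a promoter entry. On both strands, TGACNNNGC was found in 5 of these 29 (Psmb5, Psmb6, Psmc6, Psmd9 and Psmd12) and in 10.2% of 32851 promoter windows. CCGGAAG was found in 9 of 29 and in 6.91% of all windows, and CCAAT in 12 of 29 and in 33.8%. These matches describe letters and do not show binding.

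In Control the summed level of the 36 members was 2113 ± 17.3 FPKM (SD, n = 5), in AOM/DSS 2193 ± 32.3 and in WMW-H 2216 ± 67.7. The order of the levels was led in every group by Psmb3, a structural beta subunit, at 140.3 ± 5.39 FPKM in Control. Psmb4 at 126 ± 3.12 and Psmd8 at 104 ± 2.34 FPKM followed there. In WMW-H, Psma7 moved to the second place. The base assembly chaperones Psmd5, Psmd10 and Psmd9 were the lowest of the tested members, at 12.02 ± 1.92, 9.38 ± 0.871 and 8.59 ± 1.38 FPKM in Control. Along this order, the libraries of neighbouring members overlapped in 24 of 35 pairs in Control, 24 of 35 in AOM/DSS and 27 of 35 in WMW-H, so most neighbours did not differ beyond their spread. Within a group the members were steady: their median coefficient of variation was 3.26% in Control, 3.51% in AOM/DSS and 5.46% in WMW-H.

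The subunits did not move as 1 block. A member was called where limma's p, adjusted over all 12917 genes tested, was under 0.05. In AOM/DSS against Control, 13 of 34 members rose and 5 fell, where 45.5% of all tested genes rose and 20.6% fell. The comparison of WMW-H with AOM/DSS gave 16 rises and 15 falls, against 25.9% and 40.9% of all genes. In WMW-H against Control, 17 rose and 6 fell, against 35.4% and 24.1%. The 3 comparisons share libraries, so they are not independent of each other. Fewer members had groups of libraries that did not overlap: 9 higher and 5 lower in AOM/DSS against Control (36.9% and 16% of all genes), 12 and 10 in WMW-H against AOM/DSS (18.8% and 32.3%), and 11 and 3 in WMW-H against Control (25.3% and 17%). Without WMW-H replicate 3, the called counts were 16 and 15 against AOM/DSS and 18 and 4 against Control. The plot of changes by place in the complex shows called rises and falls within every part but the alpha ring in WMW-H against AOM/DSS. Against Control, the called members of some parts went in a single direction. In WMW-H the alpha ring had 6 rises and 0 falls and the lid 5 and 0. In AOM/DSS, Psmd1, Psmd2 and Psmd4 of the base had 3 rises and 0 falls.

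**Figure D1:**
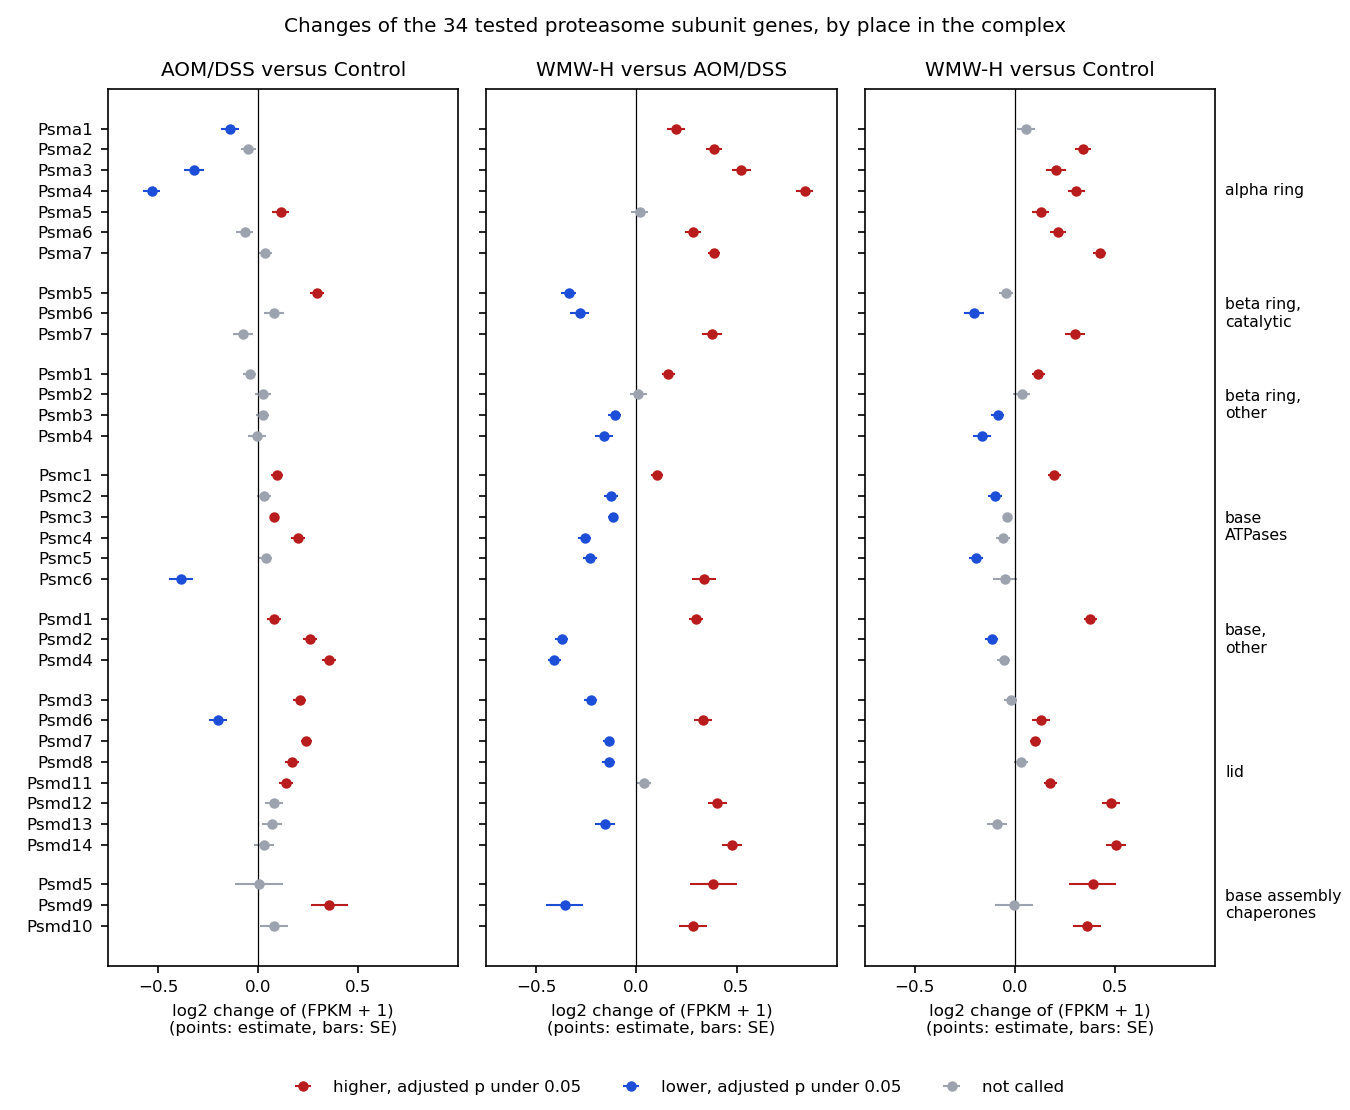
Log2 change of (FPKM + 1) of the 34 tested subunit genes in the 3 comparisons, grouped by their place in the proteasome, with points for the limma estimate and bars for its SE. In the middle panel, WMW-H against AOM/DSS, 16 genes lie to the right as called higher and 15 to the left as called lower.

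The median change of all tested genes was 0.12 on the log2 scale in AOM/DSS against Control, -0.07 in WMW-H against AOM/DSS and 0.05 in WMW-H against Control, and the medians of the 34 members were 0.05, 0.03 and 0.08. Relative to all genes the members' medians were thus -0.06, 0.10 and 0.03. The balance of calls moved with the scaling. With median-of-ratios size factors, which bring the median of all genes to 0.00 in AOM/DSS against Control, 5 members rose and 15 fell in that comparison. The share of rises among all called genes in that comparison was 68.9% as deposited, 49.7% with these factors and 47.5% with quantile normalization. Between WMW-H and AOM/DSS 17 members rose and 8 fell with these factors, where 4082 of all 12917 genes rose and 4321 fell. The share of rises among all called genes went there from 38.8% to 48.6%, or to 49.6% with quantile normalization. In WMW-H against Control 13 rose and 11 fell with these factors, and 14 and 8 with quantile normalization, where the share went from 59.5% to 48.0%. Counts that held under all 26 alternative settings were smaller: 4 higher and 3 lower in AOM/DSS against Control, 11 and 4 in WMW-H against AOM/DSS, and 8 and 4 in WMW-H against Control. Of all genes tested, 25.1% and 15.6%, 16.1% and 21%, and 20.5% and 16.7% held likewise under each alternative in which they were tested.

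The direction of a member went with the GC content of its transcripts. In WMW-H against AOM/DSS, 15 of the 19 members under 50% GC rose and 2 fell, while 1 of the 15 members of at least 50% rose and 13 fell. In AOM/DSS against Control, 5 members under 50% rose and 5 fell, while 8 of the 15 richer ones rose and the other 7 were not called. WMW-H against Control gave 16 rises and 1 fall under 50%, and 1 rise and 5 falls above. The shares of all tested genes called on each side of 50% were not counted, so these counts have no background beside them. All tested genes shifted too. From the lowest to the highest of 10 bins of GC content, their median change went from 0.20 to -0.32 in WMW-H against AOM/DSS. It went from -0.14 to 0.19 in AOM/DSS against Control and from 0.07 to -0.12 in WMW-H against Control. Across the 34 members, Spearman's rho between change and GC content was 0.68 in AOM/DSS against Control, -0.80 in WMW-H against AOM/DSS and -0.63 in WMW-H against Control. Across the 12899 genes with a GC value the same rho was 0.27, -0.55 and -0.30. These are descriptions across genes, which share their libraries and are not replicates. The slope of expression on GC content, in log2 units per 10 points of GC, ran from -0.038 to 0.020 in the Control libraries, from 0.13 to 0.17 in AOM/DSS and from -0.16 to -0.13 in WMW-H. The cause of these slopes was not tested. They separate the groups without overlap, as the plot of slopes by library shows, so base composition and group cannot be told apart.

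**Figure D2:**
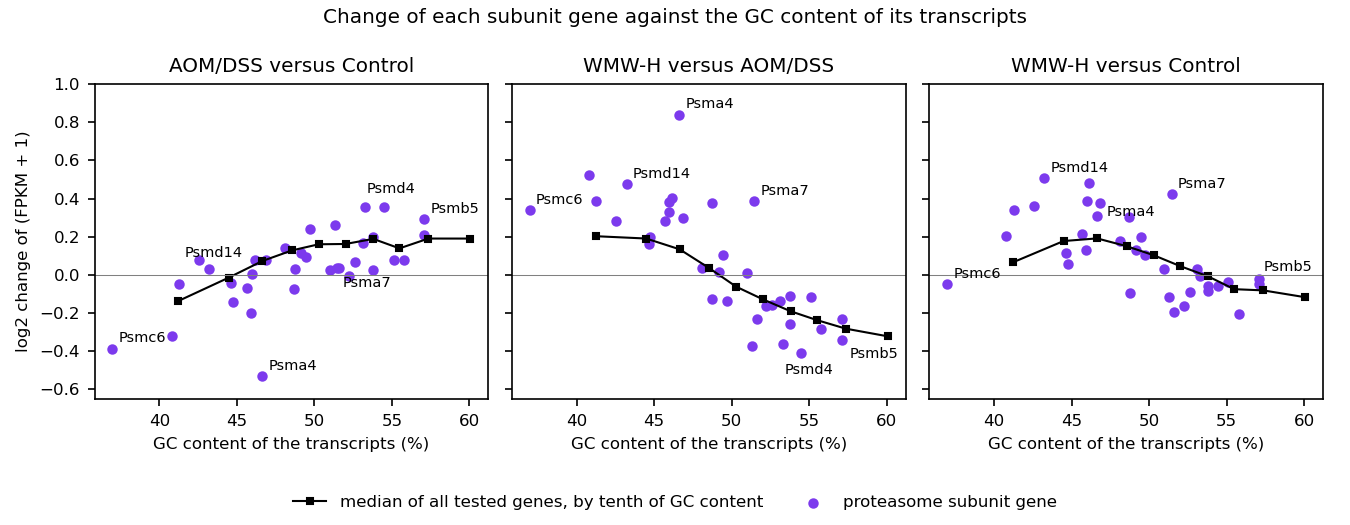
Log2 change of each tested subunit gene (purple) against the GC content of its transcripts in percent, with the median change of all tested genes in each of 10 bins of GC content with like numbers of genes (black squares). The black line for WMW-H against AOM/DSS falls from 0.20 to -0.32, and Psma4 and Psma7 lie well above it.

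**Figure D3:**
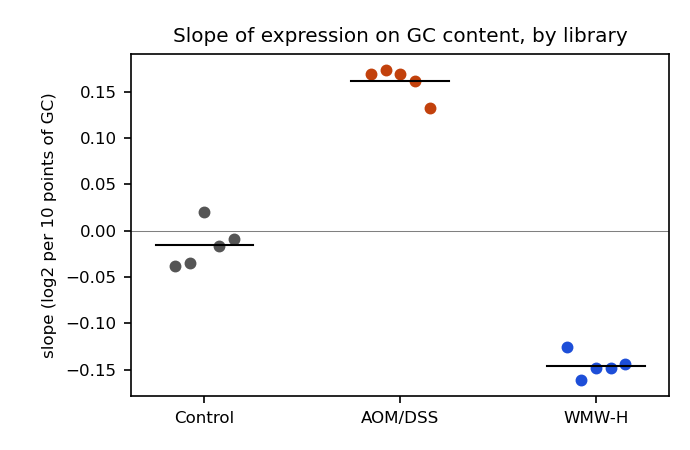
Slope of log2 expression on GC content for each library, in log2 units per 10 points of GC, with a line at the group mean. The 5 AOM/DSS libraries lie between 0.13 and 0.17 and the 5 WMW-H libraries between -0.16 and -0.13.

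A second set of values was therefore computed in which each library's smooth trend on GC content was removed, a step chosen after these data had been seen. It also removes any true difference that genes of like composition share. On these GC-corrected values, 4 members rose and 13 fell in AOM/DSS against Control, against 30.3% and 28.8% of all genes. Relative to AOM/DSS, 13 rose and 6 fell in WMW-H, against 27.8% and 28.8%, and in WMW-H against Control 9 rose and 7 fell, against 26.5% and 26.4%. Of the calls on deposited values, 8 of 18, 18 of 31 and 14 of 23 were made again in the same direction. GC-corrected changes are given beside most members below.

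The alpha ring holds the gate of the core. Relative to AOM/DSS, 6 of its 7 members rose in WMW-H, Psma5 was not called, and the median change was 0.39, while 5 rose after GC correction with a median of 0.18. Against Control, 6 of 7 rose in WMW-H, with a median of 0.22, and 4 rose and 1 fell after correction. In AOM/DSS against Control 3 fell and 1 rose, with a median of -0.07, and 5 fell after correction. Epithelial markers were lower in WMW-H than in both other groups, and fibroblast markers higher. Whether these rises go with that mix was not tested.

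Psma4 (ENSMUSG00000032301) had the largest changes of all members in AOM/DSS against Control and in WMW-H against AOM/DSS. It stood at 76.1, 68.1, 71.98, 77.3 and 72.6 FPKM in Control, 49.2, 52.5, 48.7, 49.2 and 51.8 in AOM/DSS and 89.04, 92.6, 96.9, 93.5 and 82.4 in WMW-H. The 3 groups did not overlap, with AOM/DSS lowest and WMW-H highest. It fell in AOM/DSS by 0.53 on the log2 scale (SE 0.0424, adjusted p = 7.22e-09), or by 0.65 relative to the median of all genes. In WMW-H it rose by 0.84 against AOM/DSS (SE 0.0424, adjusted p = 2.71e-11), a 1.79-fold difference. It also rose by 0.31 against Control (adjusted p = 9.2e-06). After GC correction the changes were -0.59, 0.72 and 0.13, with adjusted p of 3.15e-09, 5.04e-10 and 0.0235, so all 3 calls held. A processed pseudogene, Gm6542, matches Psma4 at 96.8% over 783 bases and was not listed in the table. Reads shared with it cannot be told apart here. Such copies, at least 90% alike over at least 300 bases, were found for 12 of the 39 constitutive and immunoproteasome genes, and the table lists 0 of these 25 copies.

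Psma3 (ENSMUSG00000060073), another member of the same ring, stood at 67.7, 60.8, 56.1, 64.9 and 60.9 FPKM in Control, 50.1, 50.04, 48.4, 47.99 and 50.8 in AOM/DSS and 71.3, 73.8, 63.6, 74.6 and 75.2 in WMW-H. All AOM/DSS libraries lay under those of the other groups. It fell in AOM/DSS by 0.32 (SE 0.049, adjusted p = 2.22e-05). In WMW-H it rose by 0.52 against AOM/DSS (SE 0.049, adjusted p = 6.91e-08). GC correction left -0.17 and 0.32 (adjusted p = 0.00233 and 7.94e-06). Its rise of 0.20 against Control had an adjusted p of 0.00181, and of 0.0581 in the exact rank-sum test, where the call was lost. Gm13835, a pseudogene outside the table, is identical to it over 685 bases.

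Psma1 (ENSMUSG00000030751) showed a smaller fall in AOM/DSS. Its levels were 69.8, 71.6, 71.6, 70.03 and 69.8 FPKM in Control, 61.1, 63.8, 65.3, 64.5 and 65.03 in AOM/DSS and 74.2, 77.5, 63.5, 73.01 and 79.9 in WMW-H. AOM/DSS lay below Control without overlap, and WMW-H replicate 3 lay among the AOM/DSS libraries. It fell by 0.14 (adjusted p = 0.0113), a call lost with TPM scaling (adjusted p = 0.0941). The rise of 0.20 in WMW-H against AOM/DSS (adjusted p = 0.00105) was lost after GC correction, where the change was 0.01 (adjusted p = 0.815), and in the rank-sum test (adjusted p = 0.133). Against Control the change was 0.06 and did not pass (adjusted p = 0.303). It passed without WMW-H replicate 3 (0.11, adjusted p = 0.00382), but GC correction turned it to a called -0.12 (adjusted p = 0.0191).

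Psma7 (ENSMUSG00000027566) was at 85.4, 89.9, 88.8, 91.995 and 88.4 FPKM in Control, 91.6, 88.1, 93.3, 94.6 and 88.5 in AOM/DSS and 124, 119, 112, 119 and 124 in WMW-H, so that the treated libraries lay above both other groups, which overlapped. It was the only alpha ring member over 50% GC (51.4%) and the only member over 50% that rose in WMW-H against either group. Its rise was 0.39 against AOM/DSS (SE 0.0308, adjusted p = 9.27e-09) and 0.42 against Control (adjusted p = 4.08e-09), and 0.48 and 0.35 after GC correction. Its values were chosen for print after they had been seen. Psma2 was at 31.5 ± 1.27, 30.5 ± 1.2 and 40.2 ± 1.98 FPKM in Control, AOM/DSS and WMW-H, and rose in WMW-H by 0.39 and 0.34 against AOM/DSS and Control (adjusted p = 1.52e-07 and 1.08e-06), and by 0.18 and 0.26 after GC correction (adjusted p = 0.000331 and 7.88e-06). Psma6 was at 73 ± 2.21, 69.7 ± 3.92 and 85.03 ± 4.86 FPKM in Control, AOM/DSS and WMW-H, and rose by 0.28 against AOM/DSS (adjusted p = 1.63e-05), or by 0.13 after GC correction (adjusted p = 0.00934). Its rise of 0.22 against Control was lost after GC correction (adjusted p = 0.512). Psma5 was at 46.3 ± 1.42, 50.2 ± 2.2 and 50.8 ± 3.36 FPKM in Control, AOM/DSS and WMW-H. Its rise of 0.11 in AOM/DSS (adjusted p = 0.0275) turned to -0.02 with median-of-ratios factors and after GC correction, and was lost without Control replicate 3 (adjusted p = 0.0747) or without AOM/DSS replicate 4 (adjusted p = 0.0833). It was 0.13 higher in WMW-H than in Control (adjusted p = 0.0153), and this likewise turned, to -0.0065, after GC correction.

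**Figure D4:**
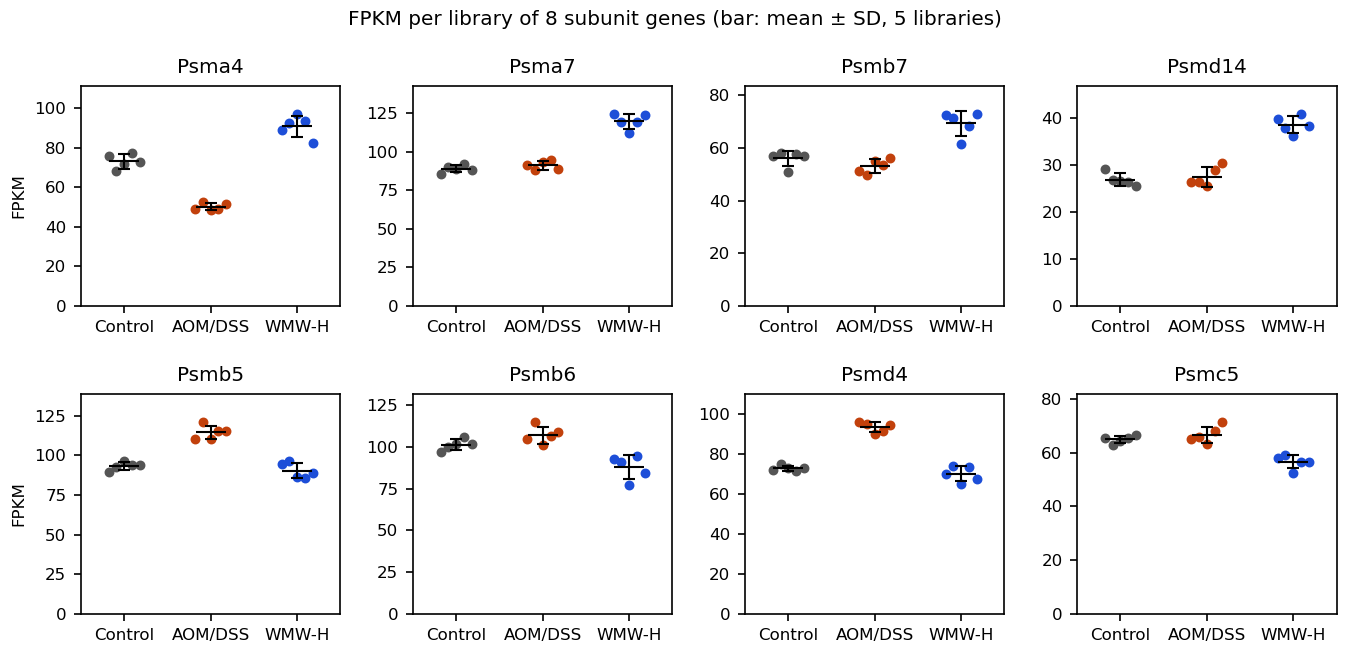
FPKM of 8 subunit genes in each of the 15 libraries, with the mean and SD of each group of 5, on axes that start at 0. The upper 4 genes are highest in WMW-H, and the lower 4 are lowest there or overlap Control there.

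The catalytic beta subunits parted from each other. From AOM/DSS to WMW-H, Psmb7 rose while Psmb5 and Psmb6 fell. Psmb5 (ENSMUSG00000022193), the chymotrypsin-like subunit, stood at 89.6, 92.4, 96.5, 93.6 and 94.1 FPKM in Control, 110.5, 121, 111, 116 and 115 in AOM/DSS and 94.5, 96.7, 86.4, 85.7 and 88.7 in WMW-H. AOM/DSS lay above both other groups without overlap. It rose in AOM/DSS by 0.29 (SE 0.0357, adjusted p = 1.58e-06), which is 0.18 above the median of all genes and 0.12 after GC correction (adjusted p = 0.00535). In WMW-H it fell by 0.34 against AOM/DSS (SE 0.0357, adjusted p = 2.96e-07). That call was lost after GC correction, at -0.07 (adjusted p = 0.0644). Its change against Control was -0.05 and did not pass (adjusted p = 0.288). It passed as a fall with median-of-ratios factors (-0.10, adjusted p = 0.0198). The total that leaves out the pancreas, gland and Paneth lists also gave a called fall (-0.09, adjusted p = 0.0336). After GC correction the change against Control turned to 0.04 and was not called. Gm3375, a pseudogene outside the table, matches it at 98.9% over 796 bases.

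Psmb6 (ENSMUSG00000018286), the caspase-like subunit, stood at 96.9, 100.01, 102, 106 and 102 FPKM in Control, 104, 115, 101, 106 and 109 in AOM/DSS and 92.9, 91.02, 77.3, 94.6 and 84.1 in WMW-H. Control and AOM/DSS overlapped, and all WMW-H libraries lay below both. It fell in WMW-H by 0.20 against Control (SE 0.0482, adjusted p = 0.0016), with -0.14 after GC correction (adjusted p = 0.0182). The fall of 0.28 against AOM/DSS (adjusted p = 6.48e-05) became -0.05 after correction (adjusted p = 0.353).

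Psmb7 (ENSMUSG00000026750), the trypsin-like subunit, stood at 56.8, 58.2, 50.8, 57.5 and 56.7 FPKM in Control, 51.1, 49.6, 54.99, 53.4 and 56.1 in AOM/DSS and 72.5, 71.5, 61.6, 68.1 and 72.7 in WMW-H. WMW-H was highest and did not overlap the other groups, with replicate 3 its lowest library. It rose by 0.38 against AOM/DSS (SE 0.0489, adjusted p = 3.39e-06) and by 0.30 against Control (adjusted p = 5.25e-05). GC correction left 0.35 and 0.15 (adjusted p = 5e-06 and 0.00813). In AOM/DSS against Control its change of -0.08 passed only without Control replicate 3 among the libraries left out (adjusted p = 0.0488). GC correction made it a called -0.19, median-of-ratios factors -0.21 and quantile normalization -0.18 (adjusted p = 0.00133, 0.000959 and 0.00273). An exon of Nek6 on the opposite strand overlaps Psmb7 by 253 bases, and Nek6 was at 26.4, 24.6 and 25.8 FPKM on average in Control, AOM/DSS and WMW-H. Whether the counting used strand is not given in the sources used here.

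The other beta subunits, which hold the ring together and have no proteolytic site, had small changes. In AOM/DSS against Control limma called 0 of the 4 at the adjusted threshold and 0 at an unadjusted p under 0.05, and the exact rank-sum test called 1, Psmb1. Their changes ran from -0.04 to 0.02 as deposited. After GC correction 3 were called lower, Psmb2, Psmb3 and Psmb4. With median-of-ratios factors limma called all 4 lower, with Psmb1 at -0.17, Psmb3 at -0.11 and Psmb4 at -0.13 (adjusted p = 6.26e-05, 0.00846 and 0.00951). Set against AOM/DSS, 1 rose and 2 fell in WMW-H, and these 3 calls were lost after GC correction. Psmb1 (ENSMUSG00000014769) stood at 79.4, 79.1, 79.6, 80.4 and 77.1 FPKM in Control, 78.3, 77.2, 76.3, 76.8 and 75.3 in AOM/DSS and 84.9, 89.8, 78.2, 88.3 and 88.6 in WMW-H. Its WMW-H libraries overlapped both other groups through replicate 3 only. It rose in WMW-H by 0.16 against AOM/DSS (adjusted p = 0.000303) and by 0.12 against Control (adjusted p = 0.00445), and both changes turned to -0.03 and -0.06 after GC correction. Psmb3 (ENSMUSG00000069744) stood at 133, 138, 141, 141 and 148 FPKM in Control, 142, 143, 140.01, 142 and 146 in AOM/DSS and 131, 141, 125, 137 and 126 in WMW-H. The groups overlapped throughout. It fell in WMW-H by 0.11 against AOM/DSS (adjusted p = 0.00846), a change that turned to 0.07 after GC correction. The fall of 0.09 against Control (adjusted p = 0.0352) was lost without any 1 of Control replicates 3, 4 and 5 or WMW-H replicates 1, 3 and 5 (adjusted p from 0.0597 to 0.104), and after GC correction (-0.08, adjusted p = 0.0512). That call was also lost in the rank-sum test (adjusted p = 0.214), with quantile normalization (adjusted p = 0.212) and in a fit of only the 2 groups compared (adjusted p = 0.0724). Psmb4 (ENSMUSG00000005779) stood at 122, 129, 128, 127 and 123 FPKM in Control, 119.8, 123, 126, 129 and 130.3 in AOM/DSS and 120.4, 119.9, 98.04, 115 and 109 in WMW-H. WMW-H lay below Control without overlap, with replicate 3 far down. It fell there by 0.16 (SE 0.045, adjusted p = 0.00475), and by 0.21 after GC correction. Psmb2, at 102 ± 4.54, 103 ± 0.96 and 104 ± 7.53 FPKM in Control, AOM/DSS and WMW-H, was called in no comparison. In the first of them median-of-ratios factors and GC correction made it a fall (-0.11 and -0.14, adjusted p = 0.0456 and 0.0128).

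In the ring of ATPases that unfolds the substrate, 3 of 6 members rose and 1 fell in AOM/DSS against Control, and WMW-H gave 2 rises and 4 falls against AOM/DSS. After GC correction the counts were 0 and 3, and 3 and 3. Psmc6 (ENSMUSG00000021832), with the lowest GC content of all members, stood at 21.6, 23.9, 24.5, 21.98 and 20.8 FPKM in Control, 18.4, 17.004, 15.3, 17.6 and 16.8 in AOM/DSS and 22.6, 22.9, 19.2, 20.9 and 23.5 in WMW-H. AOM/DSS lay below both other groups without overlap. It fell there by 0.39 (SE 0.0595, adjusted p = 2.39e-05), and the call was lost after GC correction, at -0.11 (adjusted p = 0.125). Its rise of 0.34 in WMW-H against AOM/DSS (adjusted p = 9.33e-05) was 0.14 after correction (adjusted p = 0.0407).

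Psmc4 (ENSMUSG00000030603), another ATPase of the ring, stood at 58.7, 60.2, 58.8, 59.1 and 57.6 FPKM in Control, 63.2, 65.9, 68.9, 72.2 and 68.95 in AOM/DSS and 55.1, 57.1, 54.1, 58.4 and 57.8 in WMW-H. AOM/DSS lay above both other groups without overlap. It rose there by 0.20 (adjusted p = 4.95e-05), a call lost with median-of-ratios factors (adjusted p = 0.0637) and after GC correction (adjusted p = 0.451). Its fall of 0.26 in WMW-H against AOM/DSS (adjusted p = 2.82e-06) held, with -0.08 after correction. Psmc5 (ENSMUSG00000020708) stood at 65.5, 62.9, 64.3, 65.3 and 66.5 FPKM in Control, 65.2, 65.7, 63.2, 67.97 and 71.2 in AOM/DSS and 58.2, 59.03, 52.5, 56.7 and 56.5 in WMW-H. All WMW-H libraries lay below those of both other groups. It fell in WMW-H by 0.23 against AOM/DSS (adjusted p = 1.74e-05) and by 0.20 against Control (adjusted p = 0.000136), with -0.13 and -0.26 after GC correction.

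Psmc2 (ENSMUSG00000028932) stood at 39.96, 39.2, 40.4, 42.05 and 40.4 FPKM in Control, 41.4, 41.3, 41.6, 39.4 and 42.4 in AOM/DSS and 38.3, 40.3, 36.1, 38.5 and 35.4 in WMW-H. The groups overlapped. It fell in WMW-H by 0.13 against AOM/DSS (adjusted p = 0.00402), a call lost with median-of-ratios factors (adjusted p = 0.191) and quantile normalization (adjusted p = 0.301). The fall of 0.10 against Control (adjusted p = 0.0231) was lost without Control replicate 4 (adjusted p = 0.0633), WMW-H replicate 3 (0.0534) or WMW-H replicate 5 (0.0693), but was larger, at -0.24, after GC correction. Psmc3 (ENSMUSG00000002102) stood at 101, 101, 99.2, 105 and 101 FPKM in Control, 107, 112, 103, 107 and 107 in AOM/DSS and 99.5, 99.5, 96.8, 98.4 and 99.7 in WMW-H. AOM/DSS lay above WMW-H without overlap, and both overlapped Control. It rose in AOM/DSS by 0.08 (adjusted p = 0.00641) and fell in WMW-H against AOM/DSS by 0.12 (adjusted p = 0.00033), and both directions turned after GC correction, to -0.08 and 0.10 (adjusted p = 0.0053 and 0.00156). Psmc1, at 65.2 ± 2.07, 69.6 ± 1.27 and 74.9 ± 3.35 FPKM in Control, AOM/DSS and WMW-H, rose in WMW-H by 0.20 against Control (adjusted p = 3.74e-05), which was 0.07 and lost after GC correction (adjusted p = 0.0515). Its rises of 0.09 in AOM/DSS and 0.10 in WMW-H against AOM/DSS passed too (adjusted p = 0.0129 and 0.00768). The former turned to -0.03 with median-of-ratios factors, and the latter was lost with TPM scaling (adjusted p = 0.157).

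The other base subunits, Psmd1, Psmd2 and Psmd4, form the platform on which ubiquitin and its carriers dock. All 3 rose in AOM/DSS against Control, with a median of 0.26, and 2 rose after GC correction. Psmd4 (ENSMUSG00000005625), the ubiquitin receptor, stood at 71.9, 74.8, 72.9, 71.3 and 73.04 FPKM in Control, 95.7, 94.99, 89.8, 91.4 and 94.5 in AOM/DSS and 70.003, 74.1, 65.1, 73.4 and 67.5 in WMW-H. AOM/DSS lay above both other groups without overlap. It rose there by 0.35 (SE 0.0332, adjusted p = 6.28e-08), or 0.24 relative to all genes, and fell in WMW-H against AOM/DSS by 0.41 (SE 0.0332, adjusted p = 1.17e-08). GC correction left 0.19 and -0.21 (adjusted p = 7.82e-05 and 2.91e-05). WMW-H differed from Control by -0.06, which did not pass (adjusted p = 0.154). It passed as a fall with median-of-ratios factors (-0.11, adjusted p = 0.00608) and with quantile normalization (-0.07, adjusted p = 0.0455). The total that leaves out the pancreas, gland and Paneth lists also gave a called fall (-0.10, adjusted p = 0.0136). After GC correction the change against Control was -0.02 and was not called.

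Psmd2 (ENSMUSG00000006998), a scaffold of the base, stood at 82.5, 83.9, 81.9, 81.2 and 77.4 FPKM in Control, 96.8, 97.6, 93.6, 99.4 and 100.4 in AOM/DSS and 76.4, 77.8, 68.6, 75.6 and 77.01 in WMW-H. AOM/DSS was again highest without overlap, and WMW-H replicate 3 lowest. It rose in AOM/DSS by 0.26 (adjusted p = 3.2e-06), fell in WMW-H against AOM/DSS by 0.37 (adjusted p = 3.95e-08) and fell against Control by 0.12 (adjusted p = 0.00702). After GC correction these were 0.10, -0.29 and -0.19, all still called. Gm5422, a transcribed pseudogene outside the table, matches Psmd2 at 96.4% over 2726 bases. Psmd1, the other large scaffold, went another way: at 32.6 ± 1.11, 34.5 ± 1.17 and 42.7 ± 1.61 FPKM in Control, AOM/DSS and WMW-H, it rose in WMW-H by 0.30 against AOM/DSS (adjusted p = 6.7e-07) and by 0.38 against Control (adjusted p = 5.16e-08), and by 0.18 and 0.20 after GC correction. Its small rise of 0.08 in AOM/DSS (adjusted p = 0.0452) turned to -0.05 with median-of-ratios factors, and was lost without any 1 of Control replicates 1, 2 and 5, AOM/DSS replicates 1, 2, 4 and 5 and WMW-H replicate 1 (adjusted p from 0.0511 to 0.108). Psmd1 shares exonic bases with Htr2b on the opposite strand, which averaged 0.689, 0.587 and 0.884 FPKM in Control, AOM/DSS and WMW-H.

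Among the 8 lid subunits, 4 rose and 1 fell in AOM/DSS against Control, and WMW-H gave 3 rises and 4 falls against AOM/DSS. Against Control, 5 rose in WMW-H and 3 were not called. After GC correction the lid counts were 1 rise and 1 fall, 3 and 1, and 2 and 1. Psmd14 (ENSMUSG00000026914), the metalloprotease that cuts ubiquitin off the substrate, stood at 29.2, 26.8, 26.5, 26.4 and 25.4 FPKM in Control, 26.3, 26.4, 25.4, 28.8 and 30.4 in AOM/DSS and 39.7, 37.9, 36.2, 40.7 and 38.3 in WMW-H. Control and AOM/DSS overlapped and all WMW-H libraries lay above them. It rose in WMW-H by 0.48 against AOM/DSS (SE 0.049, adjusted p = 2.17e-07) and by 0.51 against Control (SE 0.049, adjusted p = 1.5e-07). GC correction left 0.27 and 0.36 (adjusted p = 5.35e-05 and 2.47e-06).

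Psmd7 (ENSMUSG00000039067), the inactive partner of Psmd14, stood at 56.4, 58.2, 54.1, 56.8 and 54.3 FPKM in Control, 64.2, 67.5, 65.9, 66.9 and 66.9 in AOM/DSS and 60.3, 62.3, 61.1, 59.8 and 57.3 in WMW-H. AOM/DSS was highest and overlapped neither other group. It rose there by 0.24 (adjusted p = 9.5e-07), or 0.10 after GC correction, and fell in WMW-H against AOM/DSS by 0.14 (adjusted p = 0.000359), a call lost with median-of-ratios factors (adjusted p = 0.0675). WMW-H was 0.10 higher than Control (adjusted p = 0.00485), which turned to -0.02 after correction. Psmd6 (ENSMUSG00000021737), a scaffold of the lid, stood at 37.1, 34.6, 34.9, 32.1 and 35.7 FPKM in Control, 29.2, 30.2, 31.6, 29.99 and 29.9 in AOM/DSS and 40.5, 41.95, 35.3, 37.3 and 36.4 in WMW-H. AOM/DSS was lowest without overlap. It fell there by 0.20 (adjusted p = 0.00111) and was higher again in WMW-H, by 0.33 against AOM/DSS (adjusted p = 8.12e-06), with -0.24 and 0.18 after GC correction. Against Control its rise of 0.13 (adjusted p = 0.0227) turned to -0.05 after correction and was lost without Control replicate 4 (adjusted p = 0.0697), WMW-H replicate 1 (0.0625) or WMW-H replicate 2 (0.0696).

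Psmd3 (ENSMUSG00000017221) stood at 60.6, 61.2, 60.6, 63.8 and 58.3 FPKM in Control, 75.03, 72.5, 68.6, 70.3 and 66.4 in AOM/DSS and 61.3, 60.2, 60.996, 59.4 and 58.2 in WMW-H. AOM/DSS lay above both other groups. It rose there by 0.21 (adjusted p = 2.7e-05) and fell in WMW-H against AOM/DSS by 0.23 (adjusted p = 9.78e-06), but after GC correction the former was 0.03 and lost and the latter turned to 0.04 (adjusted p = 0.414 and 0.361). Psmd8 (ENSMUSG00000030591) stood at 104, 103, 102, 107 and 101 FPKM in Control, 121, 114, 109, 115 and 123 in AOM/DSS and 105, 103, 113, 104 and 104 in WMW-H. AOM/DSS lay above Control, and WMW-H replicate 3 reached into AOM/DSS. The rise of 0.17 (adjusted p = 0.000307) and the fall of 0.14 (adjusted p = 0.00163) went to -0.0039 and 0.02 after GC correction, both reversed and not called. Psmd13 (ENSMUSG00000025487) stood at 62.9, 64.7, 59.6, 60.3 and 64.8 FPKM in Control, 67.1, 67.8, 62.5, 63.7 and 66.97 in AOM/DSS and 63.3, 58.5, 51.6, 63.99 and 56.9 in WMW-H. The groups overlapped. It fell in WMW-H against AOM/DSS by 0.16 (adjusted p = 0.00887), a call lost after GC correction (adjusted p = 0.707). Against Control its change of -0.09 did not pass (adjusted p = 0.131). It passed as a fall with median-of-ratios factors (-0.14, adjusted p = 0.0139), with the total that leaves out the pancreas, gland and Paneth lists (-0.14, adjusted p = 0.0284), with quantile normalization (-0.12, adjusted p = 0.0408), after GC correction (-0.12, adjusted p = 0.0339) and without WMW-H replicate 4 (-0.12, adjusted p = 0.0448). Sirt3 on the opposite strand shares 329 exonic bases with Psmd13 and was at 10.6, 9.39 and 10.5 FPKM on average.

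Psmd12, a lid scaffold, was at 23.9 ± 0.982, 25.3 ± 1.74 and 33.8 ± 1.57 FPKM in Control, AOM/DSS and WMW-H. All WMW-H libraries lay above the others. It rose in WMW-H by 0.40 against AOM/DSS (adjusted p = 6.14e-07) and 0.48 against Control (adjusted p = 1.01e-07), and by 0.26 and 0.30 after GC correction. Psmd11, at 31.02 ± 1.34, 34.3 ± 0.631 and 35.2 ± 1.52 FPKM in Control, AOM/DSS and WMW-H, rose by 0.14 in AOM/DSS and by 0.18 in WMW-H against Control (adjusted p = 0.00177 and 0.000295), and both calls were lost after GC correction (adjusted p = 0.407 and 0.708).

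Psmd5, Psmd9 and Psmd10 are chaperones that build the base and leave it before the particle is complete. In each group these 3 had the highest coefficients of variation of the tested members, from 7.69% to 17.3%. Psmd9 (ENSMUSG00000029440) stood at 6.83, 9.95, 7.7, 9.98 and 8.48 FPKM in Control, 10.7, 11.8, 11.9, 9.84 and 11.6 in AOM/DSS and 9.7, 8.89, 6.997, 8.25 and 8.8 in WMW-H. AOM/DSS lay above WMW-H without overlap and overlapped Control. It rose in AOM/DSS by 0.36 (SE 0.094, adjusted p = 0.00312) and fell in WMW-H against AOM/DSS by 0.36 (adjusted p = 0.00291), and both calls were lost after GC correction (adjusted p = 0.0978 and 0.079). Psmd5 (ENSMUSG00000026869) stood at 11.7, 9.53, 11.4, 14.8 and 12.7 FPKM in Control, 11.97, 14.1, 10.6, 10.5 and 12.95 in AOM/DSS and 12.1, 17.7, 18.5, 17.8 and 14.3 in WMW-H. The groups overlapped. It rose in WMW-H by 0.38 against AOM/DSS and 0.39 against Control (adjusted p = 0.009 and 0.00962), and GC correction and the rank-sum test each ended both calls. Psmd10, at 9.38 ± 0.871, 9.95 ± 0.765 and 12.3 ± 1.14 FPKM in Control, AOM/DSS and WMW-H, rose in WMW-H by 0.36 against Control (adjusted p = 0.000293) and by 0.28 against AOM/DSS (adjusted p = 0.0019), and only the former held after GC correction (0.24, adjusted p = 0.00794).

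Taking the calls that held under every alternative, Psma3, Psma4 and Psmd6 fell in AOM/DSS, and Psmb5, Psmd2, Psmd4 and Psmd7 rose. In WMW-H against AOM/DSS, Psma2, Psma3, Psma4, Psma6, Psma7, Psmb7, Psmc6, Psmd1, Psmd6, Psmd12 and Psmd14 rose, and Psmc4, Psmc5, Psmd2 and Psmd4 fell. In WMW-H against Control, Psma2, Psma4, Psma7, Psmb7, Psmd1, Psmd10, Psmd12 and Psmd14 rose, and Psmb4, Psmb6, Psmc5 and Psmd2 fell.

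The immunoproteasome counterparts moved more than any constitutive member in AOM/DSS. Psmb8 fell there from 100.4 ± 2.72 to 38.4 ± 2.22 FPKM, Psmb9 from 29.8 ± 0.454 to 11.3 ± 0.522 and Psmb10 from 106 ± 3.08 to 68.2 ± 2.17 (log2 changes -1.37, -1.33 and -0.63, adjusted p = 8.05e-15, 6.47e-11 and 4.87e-10). In WMW-H they were at 52.4 ± 2.66, 15.5 ± 2.47 and 68.5 ± 4.97 FPKM. Psmb8 and Psmb9 rose against AOM/DSS by 0.44 and 0.41 (adjusted p = 5.39e-08 and 0.000121), and Psmb10, at 0.00, was called only after GC correction (0.25). Tap1, which shares 212 exonic bases with Psmb9 on the opposite strand, averaged 45.9, 14 and 17.1 FPKM in the same groups, and its part in the values of Psmb9 was not tested. Each replaces 1 constitutive subunit, so its share of the summed FPKM of its pair was computed per library. Psmb8 made up 53.3, 52.2, 51.8, 51.04 and 50.9% of Psmb8 plus Psmb5 in Control, 27.4, 24.6, 25.4, 23.8 and 24.3% in AOM/DSS and 37.2, 33.4, 37.8, 38.01 and 37.1% in WMW-H. The 3 groups did not overlap. The mean fell by 26.7 points in AOM/DSS, and WMW-H lay 11.6 points above AOM/DSS and 15.2 below Control. The share of Psmb9 in its pair with Psmb6 was 22.8 ± 0.75% in Control, 9.55 ± 0.73% in AOM/DSS and 14.9 ± 1.21% in WMW-H (SD, n = 5). For Psmb10 with Psmb7 the shares were 65.5 ± 1.67%, 56.3 ± 1.57% and 49.7 ± 1.32%, so that WMW-H was lowest in this pair and between the other groups in the others. All 9 differences had an exact two-sided permutation p of 0.0079, the smallest that 5 against 5 libraries can give, also after adjustment over the 9. Transcripts of Psmb10 hold 56.5% GC and those of Psmb7 48.7%, further apart than Psmb8 and Psmb5 (55.8% and 57.1%) or Psmb9 and Psmb6 (55.3% and 55.8%). On GC-corrected values the shares of Psmb10 were 64.6 ± 1.39%, 54.3 ± 1.46% and 52.7 ± 1.51% in Control, AOM/DSS and WMW-H (SD, n = 5), and the step from AOM/DSS to WMW-H, -1.68 points against -6.55 as deposited, no longer passed (exact permutation p = 0.127). The other 8 differences kept their direction and an exact p of 0.0079 (0.0089 after adjustment over the 9).

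**Figure D5:**
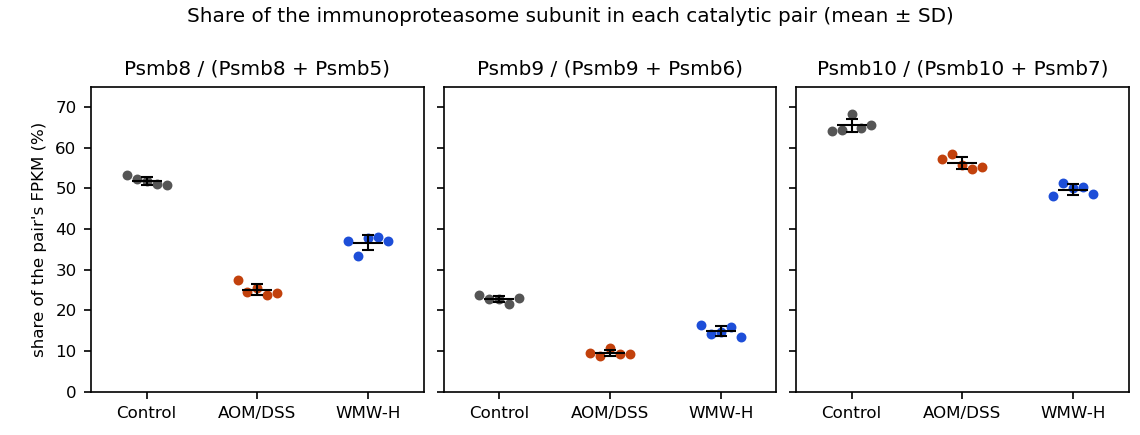
Share of the immunoproteasome subunit in the summed FPKM of each catalytic pair, in percent, for each library, with the mean and SD of each group of 5. For Psmb8 the groups average 51.9%, 25.1% and 36.7%, and for Psmb10 they step down from 65.5% to 56.3% and 49.7%. These shares are as deposited, without GC correction.

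Other genes of the pathway were read from a list of 38 tested companions. In AOM/DSS against Control 19 rose and 9 fell, where 45.5% and 20.6% of all genes did. In WMW-H against AOM/DSS 13 rose and 14 fell, against 25.9% and 40.9%, and in WMW-H against Control 13 rose and 10 fell, against 35.4% and 24.1%. After GC correction 11 and 10, 12 and 12, and 10 and 13 were called. The activators of the core split. Psme1 and Psme2, which form the interferon-induced 11S cap, fell in AOM/DSS by 0.39 and 0.50 (adjusted p = 2.08e-09 and 5.86e-08), while Psme3, which forms the nuclear cap, rose by 0.30 (adjusted p = 4.26e-08), or by 0.16 after GC correction. From AOM/DSS to WMW-H Psme2 rose by 0.30 (adjusted p = 2.22e-05), and Psme3 fell by 0.15 (adjusted p = 9.72e-05). Psme1 fell by a further 0.16 (adjusted p = 8.35e-05), a call lost after GC correction (-0.02, adjusted p = 0.562). Psme4, the large single-chain activator, fell by 0.16 in AOM/DSS, and the inhibitor Psmf1 rose there by 0.22 and fell in WMW-H against AOM/DSS by 0.28 (adjusted p = 0.00257, 0.00177 and 0.000217), of which the rise was lost after GC correction (adjusted p = 0.417).

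Of the 5 chaperones that assemble the core, 1 (Psmg4) was called higher in AOM/DSS against Control, by 0.29 (adjusted p = 0.0222). That call was lost after GC correction (0.12, adjusted p = 0.318), with median-of-ratios factors (adjusted p = 0.165) and quantile normalization (adjusted p = 0.309), in the rank-sum test (adjusted p = 0.132) and without Control replicate 1, 3 or 5 or AOM/DSS replicate 3 (adjusted p from 0.055 to 0.0666). Between WMW-H and AOM/DSS limma called 0 at the adjusted threshold and 0 at an unadjusted p under 0.05, and the exact rank-sum test called 0. There Psmg1 was called higher after GC correction (0.24, adjusted p = 0.022, against 0.15 as deposited), with median-of-ratios factors (adjusted p = 0.0259), with quantile normalization (adjusted p = 0.016) and without WMW-H replicate 3 (adjusted p = 0.00908), and Psmg3 was called lower without AOM/DSS replicate 3 (adjusted p = 0.0355). Pomp, which matures the beta ring, was at 60.7, 77.5, 52.8, 56.5 and 52.4 FPKM in Control, 59.4, 62.5, 65.2, 56.8 and 68.2 in AOM/DSS and 67.3, 71.7, 56.5, 70.96 and 66.8 in WMW-H and was not called in any comparison. Without Control replicate 2, its highest library there, it was called higher in AOM/DSS (adjusted p = 0.0458) and in WMW-H (adjusted p = 0.00455) against Control, and the latter also without WMW-H replicate 3 (adjusted p = 0.0449). Of the 8 other components and regulators, 4 rose and 1 fell in AOM/DSS, and WMW-H gave 5 rises and 1 fall against AOM/DSS. After GC correction 2 were called there, both lower (Ube3c and Zfand5). Ecpas, which tethers the particle, fell in AOM/DSS by 0.21 (adjusted p = 0.0115), and the ubiquitin receptor Adrm1 fell in WMW-H against AOM/DSS by 0.36 (adjusted p = 1.26e-07), which became -0.03 after GC correction.

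Among the 4 genes that control proteasome genes, 2 rose and 1 fell in AOM/DSS, and WMW-H gave 2 rises and 2 falls against AOM/DSS. Nfe2l1 was at 57.5, 56.2, 60.9, 59.1 and 54.7 FPKM in Control, 66.7, 63.6, 67.5, 64.4 and 65.2 in AOM/DSS and 53.4, 57.5, 63.02, 56.4 and 56.1 in WMW-H. AOM/DSS lay above both other groups without overlap. It rose there by 0.18 (adjusted p = 0.000593) and fell in WMW-H by 0.19 (adjusted p = 0.000346), and after GC correction its changes were 0.01 and -0.01, neither called. Ngly1, whose enzyme removes the sugars of NRF1 and so activates it, fell in AOM/DSS by 0.48 and rose in WMW-H by 0.47 (adjusted p = 2.76e-07 and 4.11e-07), with -0.47 and 0.28 after correction.

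The 13 genes of ubiquitin and its delivery gave 10 rises and 1 fall in AOM/DSS against Control, with 4 and 1 after GC correction, and 2 rises and 8 falls in WMW-H against AOM/DSS, with 5 and 7 after correction. Uba1, the main ubiquitin-activating enzyme, fell in WMW-H by 0.47 against AOM/DSS and by 0.31 against Control (adjusted p = 4.77e-12 and 1.54e-09), and by 0.36 and 0.37 after correction. The unfoldase Vcp rose in AOM/DSS by 0.29 (adjusted p = 1.37e-08), and the shuttle Ubqln4 by 0.31 (adjusted p = 5.82e-07). Both fell in WMW-H against AOM/DSS, by 0.24 and 0.52 (adjusted p = 1.89e-07 and 1.33e-09), and all 4 calls held after correction. Against this, Rps27a, a fusion of ubiquitin and a ribosomal protein, and the shuttle Rad23b rose in WMW-H by 0.43 and 0.24 (adjusted p = 1.48e-05 and 1.76e-05), and by 0.41 and 0.10 after correction. Ufd1, a cofactor of Vcp, fell in AOM/DSS by 0.13 (adjusted p = 0.0261), which was lost with TPM scaling (adjusted p = 0.137), in the rank-sum test (adjusted p = 0.0819) and without Control replicate 2 (0.0563), Control replicate 4 (0.0726) or AOM/DSS replicate 2 (0.0621).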

How the data were processed

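RNA-seq of mouse colon was measured in 15 libraries, 5 each of Control, AOM/DSS and WMW-H. The authors deposited FPKM per gene in 1 table. Per the labels' protocols, RNA was selected by poly(A) and sequenced on a NovaSeq instrument. Tools listed in the submitters' processing notes are RSEM, HISAT2, StringTie 1.3.1, fastp 0.18.0 and Bowtie2 2.2.8. The genome build and the use of strand in counting are not given in the sources used here.

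The filter kept 12917 genes that reached 1 FPKM in 5 or more libraries. Their log2(FPKM + 1) went into 1 limma fit (version 3.58.1, R 4.3.3) of all 15 libraries with a mean-variance trend. Tests were two-sided, Benjamini-Hochberg adjusted p-values covered every gene kept, and 0.05 was the threshold. Changes on this scale understate those of low genes. Pair shares were compared with exact permutation tests in scipy 1.17.1. On simulated data, for AOM/DSS against Control over 12631 genes, limma recovered 49 of 50 genes changed 1.25-fold, 44 of 50 at 0.8, 50 of 50 at 2 and 50 of 50 at 0.5, with 7 false calls among 200. For WMW-H against AOM/DSS over 12850 genes it recovered 47, 40, 50 and 50 of 50, with 7 false among 194 calls, and for WMW-H against Control over 12626 genes 50, 45, 50 and 50, with 10 false among 205. Apart from the 50 genes at each fold, no simulated gene was changed. All genes had the same nominal length and ratio of variance to mean, and no GC trend or shift of scale was added. The data differ in these points, so the rates do not apply to calls that move with GC content or scaling. Depth was read from FPKM steps: 91.2% of 4568 low values lay within 0.1 of a whole fragment. Other scalings, filters, pseudocounts, tests and leaving out each library were tried as alternatives.

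Values in every library are given for Psmb5, Psmb6 and Psmb7, for the member of each role with the largest absolute log2 change in AOM/DSS against Control and in WMW-H against AOM/DSS, and for members called against the direction of most called members in a comparison. Psma7 was printed outside this rule. Named companions are Psmb8, Psmb9, Psmb10, Pomp and Nfe2l1, the 5 others with the smallest adjusted p, and those called against most of their class. 1 gene that this rule names is not reported here. Psmg1, Psmg3, Psmg4, Ube3c and Zfand5 were named after their values were seen. The members and lists were chosen with earlier results of these data known. Transcript GC content is from GENCODE M21, as the median over a gene's protein coding transcripts, or over all where none is coding. Short transcripts count in full, so the value may differ from that of the transcript expressed. The 3 transcripts of Psmd2, for example, had a median length of 659 bases. Removal of the GC trend was an alternative chosen after seeing the data. Replicate numbers did not pair libraries (correlations of same-numbered deviations from -0.047 to 0.030).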

Additional observations from a re-analysis of the deposited data

Results flagged for a closer look

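A library was singled out where its gap to the nearest of the other 4 was more than 0.71 of its group's range. Chance alone gives about 1 in 20 groups, and 14 of 168 groups were singled out, 5 of them through WMW-H replicate 3.

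Among the subunits, WMW-H replicate 3 was the lowest of its group for Psmd2 at 68.6 FPKM, and the highest for Psmd8 at 113.4 FPKM and for Psmd11 at 37.8 FPKM. Among the companions, the same library was lowest for Vcp at 114.9 FPKM and highest for Rad23b at 54.5 FPKM. In AOM/DSS, replicate 2 was highest for Psma2 at 32.6 FPKM and for Psmb2 at 105.1 FPKM, and replicate 4 was lowest for Psmd11 at 33.2 FPKM and highest for Psme4 at 17.3 FPKM. AOM/DSS replicate 3 was highest for Psmb9, at 12.2 FPKM. In Control, replicate 3 was lowest for Psma5 at 43.9 FPKM and for Psmb7 at 50.8 FPKM, and replicate 2 was highest for Rps27a at 336.8 FPKM. The share of Psmb8 in its pair with Psmb5 was lowest in WMW-H replicate 2, at 33.4%.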

How the results depend on the processing

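With median-of-ratios size factors, quantile normalization and GC-corrected values, the members higher in AOM/DSS against Control numbered 5, 7 and 4, and the lower ones 15, 10 and 13. Of all 12917 genes, 3924 were higher and 3979 lower with median-of-ratios factors, and 3765 and 4167 with quantile normalization. After GC correction 3905 and 3716 of 12899 were. The members lower in WMW-H against AOM/DSS numbered 8, 9 and 6, where 4321, 4269 and 3721 of all genes were lower. In WMW-H against Control, 9 were higher after GC correction, and 11 were lower both with median-of-ratios factors and with a total that leaves out the pancreas, gland and Paneth lists. Of all genes, 3418 were higher after GC correction, and 3807 and 3676 were lower with those scalings. The causes were not tested. The other counts of members stayed within 1.5 times. The share of Psmb10 with Psmb7 differed by -1.68 points in WMW-H against AOM/DSS after GC correction and did not pass (exact permutation p = 0.127).

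Leaving out 1 library at a time gave 11 to 13 higher and 5 to 6 lower members in AOM/DSS against Control, 16 and 15 in WMW-H against AOM/DSS, and 16 to 18 and 4 to 7 in WMW-H against Control. The shares of Psmb8, Psmb9 and Psmb10 then differed by -27.3 to -26.4, -13.5 to -13.0 and -9.82 to -8.56 points in AOM/DSS against Control. With the replicate number as a block, 12 members were higher and 5 lower, 16 and 15, and 17 and 6. Of the named genes' calls, 1 was lost under the block (Psmd1 in AOM/DSS against Control, adjusted p = 0.060 by limma). Of 15 same-numbered pairs 0 correlated over 0.1, and 1 of 15 libraries correlated best with its own number.

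Turns of sign are listed for named genes that were called before or after the change of setting. Turns between values that were both not called are left out. After GC correction these log2 changes turned sign in AOM/DSS against Control: Psma5 -0.016, Psma7 -0.13, Psmb2 -0.14, Psmb3 -0.15, Psmc1 -0.041, Psmc2 -0.090, Psmc3 -0.083, Psmc5 -0.13, Psmd8 -0.0039, Uba1 -0.0030 and Adrm1 -0.044. In WMW-H against AOM/DSS they were Psmb1 -0.027, Psmb3 0.069, Psmc3 0.099, Psmd3 0.036, Psmd8 0.017 and Psme4 -0.071. In WMW-H against Control they were Psma1 -0.12, Psma5 -0.0065, Psmb1 -0.059, Psmd6 -0.055, Psmd7 -0.018 and Vcp -0.065. With median-of-ratios factors, AOM/DSS against Control gave Psma5 -0.016, Psma7 -0.093, Psmb2 -0.11, Psmb3 -0.11, Psmc1 -0.035, Psmc2 -0.099, Psmc3 -0.050, Psmc5 -0.093 and Psmd1 -0.048. Quantile normalization gave Psma5 -0.00058, Psmc2 -0.082 and Psmd1 -0.029 there. The cause of these turns was not tested.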
